A study of Homo sapiens with 3 samples.

Results

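The 45 genes described here encode the machinery with which the endoplasmic reticulum imports, folds and disposes of proteins. They were chosen by name, as genes for chaperones, disulfide isomerases, the translocon, degradation factors and stress sensors, and not by a rule on measured values. Earlier results of these data were known when these genes and the further lists below were chosen. Their shares beside those of all genes are therefore descriptions. All 45 were found by Entrez identifier among the 19266 genes of each table, and 44 of them had enough counts to be tested. The cells were of KYSE510, a long-established line from a human squamous carcinoma of the esophagus, grown in RPMI-1640 medium with serum. Cells of each group were exposed for 24 h to lentivirus coding for a short hairpin RNA and were then kept for 48 h under 4 µM puromycin. The sh1 group carried hairpin 1 and the sh2 group hairpin 2 against the transcript TCONS_02256997, whose potential targets the study set out to screen, and the control group carried a scrambled hairpin. All groups therefore share the infection and the drug selection, each comes from 1 line, and each is 1 sample with 3 numbered tables, called libraries below. Whether they are cultures, libraries or repeat runs of 1 library is not stated, so every error and p-value below measures the spread between tables of 1 sample, which may be technical.

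Secreted and membrane proteins enter the endoplasmic reticulum through the SEC61 channel, are folded there by HSP70- and HSP90-type chaperones, by the lectins calnexin and calreticulin and by disulfide isomerases, and are sent back to the cytosol for degradation if they do not fold. When unfolded proteins build up, the sensors IRE1 (ERN1), PERK (EIF2AK3) and ATF6 start the unfolded protein response. IRE1 splices the mRNA of the transcription factor XBP1, ATF6 is cut to release a transcription factor, both act on promoters of chaperone and degradation genes, and PERK slows translation and favours ATF4. Squamous cells are not specialised secretory cells, and they use this machinery mainly for membrane, adhesion and matrix proteins.

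Total expected counts were 14660821 to 14770512 in the sh1 libraries, 15759270 to 16092417 in the sh2 libraries and 15012961 to 15414591 in the control libraries. The targeted transcript was not analysed here. All 8 markers of squamous epithelium passed 1 TPM (a level corrected for gene length and scaled to the same total in every library), and their summed level was 5088 to 5189 TPM with sh1, 5990.0 to 6071 TPM with sh2 and 6967 to 7049 TPM in control. The lower sums were carried mainly by the abundant KRT17 and KRT5. KRT17 was 0.65-fold the control with sh1 and 0.97-fold with sh2, and KRT5 0.65-fold with sh1 and 0.64-fold with sh2. With sh1, KRT14, TP63 and DSG3 were 0.24-, 0.41- and 0.46-fold the control, and with sh2 0.50-, 0.45- and 0.64-fold. In contrast, EPCAM was 1.98-fold the control with sh1 and 1.42-fold with sh2, CDH1 was 1.52-fold with sh1 and KRT6A 1.45-fold with sh2. Of 5 markers of plasma and goblet cells, which secrete heavily, 0 passed 1 TPM. They summed to 0.25 to 0.67 TPM with sh1, 0.33 to 0.54 TPM with sh2 and 0.30 to 0.58 TPM in control, with TFF3 at 0 throughout. Of 6 fibroblast markers 1 passed it (COL1A1), with sums of 21.5 to 24.6 TPM with sh1, 26.7 to 28.1 TPM with sh2 and 20.3 to 21.5 TPM in control. Of 6 immune markers 4 passed it. Their sums of 165 to 172 TPM with sh1, 151 to 169 TPM with sh2 and 106 to 113 TPM in control were mostly CD68, which encodes a lysosomal membrane protein. Of 4 endothelial markers 2 passed it, with sums of 7.45 to 10.6 TPM with sh1, 7.75 to 8.83 TPM with sh2 and 6.39 to 7.25 TPM in control. The part of these marker levels in the results was not tested, and in bulk RNA fewer cells of a kind and less RNA per cell cannot be told apart.

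Most genes of folding rose with sh1, among them the most abundant, while ERN1, XBP1 and several degradation genes fell with both hairpins. Together the 45 genes took 1.21% to 1.23% of all TPM in the sh1 libraries, 0.766% to 0.783% in the sh2 libraries and 0.694% to 0.705% in the control libraries. With sh1 against control, 26 of the 44 tested genes rose (59.1%, where 34.7% of all 13580 genes tested were called higher) and 12 fell (27.3%, against 34.6% of all genes), 38 in all, where 69.3% of all genes were called. These calls used an adjusted p below 0.05 in edgeR's quasi-likelihood test. At 1.5-fold or more, 18 rose and 6 fell, where 11.3% and 12.8% of all genes did (24.1% in either direction). With sh2 against control, 20 rose and 17 fell, where 34.2% and 34.3% of all genes were called (68.5% in either direction), and at 1.5-fold or more 5 rose and 7 fell, where 9.74% and 12.4% of all genes did (22.2% in either direction). The members called with sh2 thus came to 45.5% higher and 38.6% lower. Median log2 changes over the 44 genes were 0.34 with sh1 and 0.04 with sh2, and over all genes 0.014 with sh1 and 0.0046 with sh2. The largest adjusted p among the members called was 0.00955 with sh1 (DNAJC3) and 0.025 with sh2 (SSR1), by edgeR. Both comparisons use the same control libraries. The libraries of the groups did not overlap in TPM for 39 members with sh1 and 38 with sh2, where 71.0% and 69.5% of all genes tested did not. Members and all genes were not matched by level, which bears on how often genes are called or do not overlap.

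**Figure D1:**
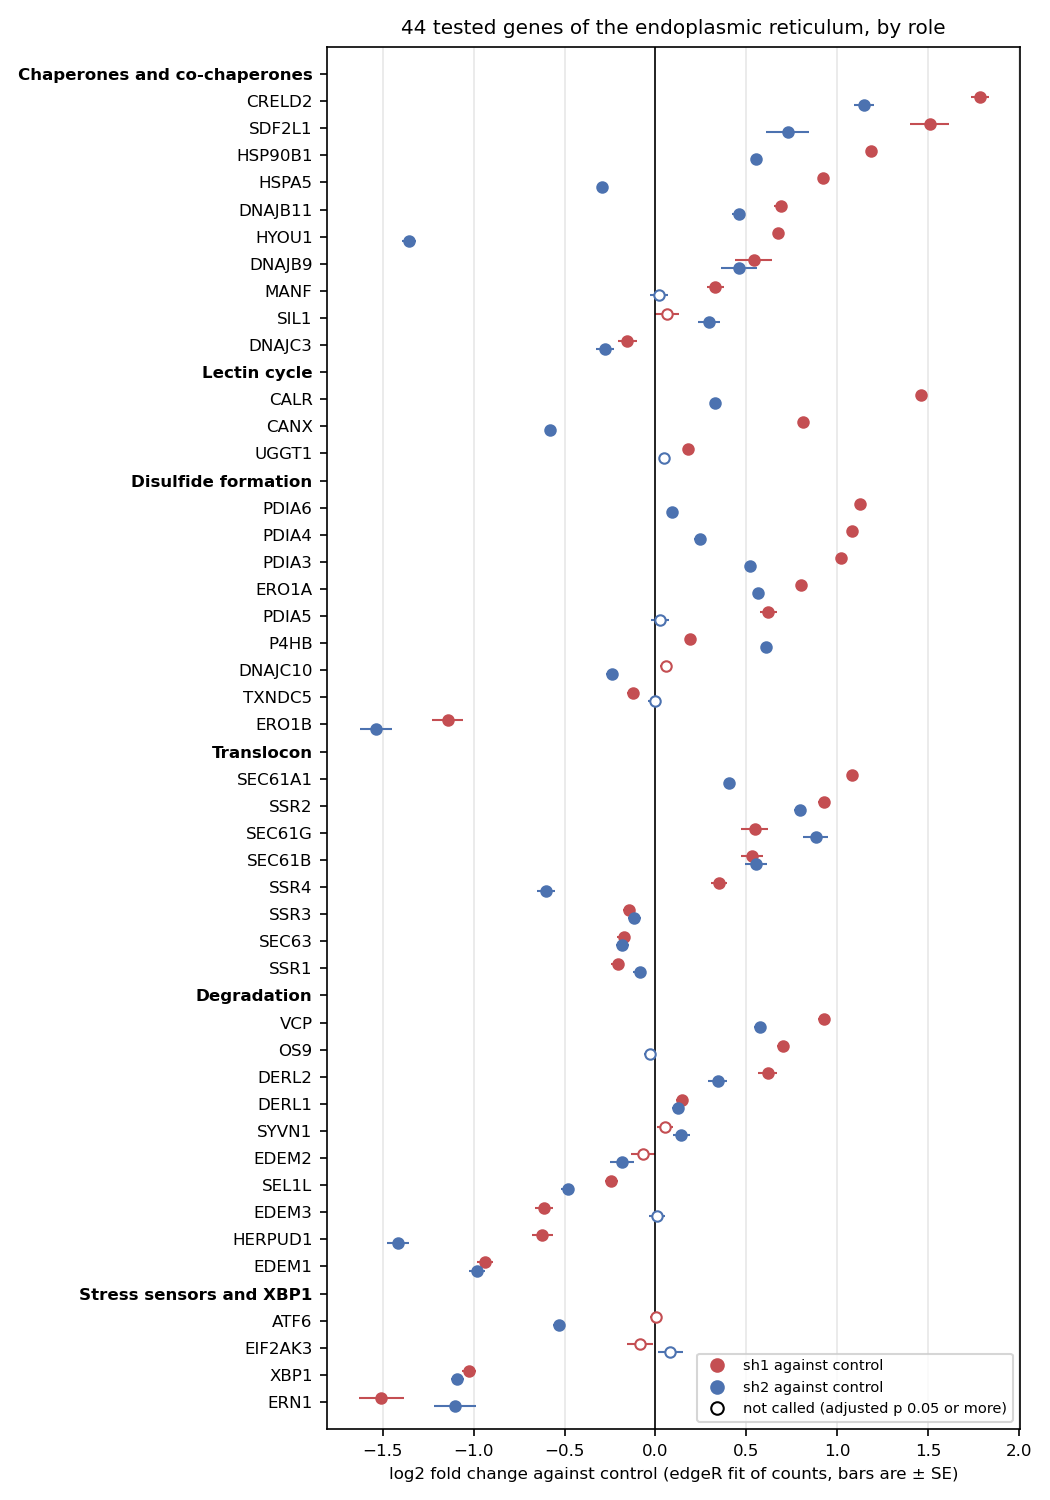
Log2 fold change against control (horizontal axis, ± SE) for the 44 tested genes, grouped by role, with sh1 above sh2 in each row and open circles for values that were not called. Folding genes lie mostly to the right with sh1, up to 1.78 for CRELD2, while ERO1B, HERPUD1, EDEM1, XBP1 and ERN1 lie to the left with both hairpins.

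Chaperones and co-chaperones rose for 8 of 10 genes with sh1 and for 6 of 10 with sh2, and 1 fell with sh1 and 3 with sh2. Of all genes, 34.7% were called higher and 34.6% lower with sh1, and 34.2% and 34.3% with sh2. Counts of the roles below stand beside these same shares and are small. The median log2 changes of the chaperones and co-chaperones were 0.68 with sh1 and 0.38 with sh2. The largest rises were those of CRELD2 and SDF2L1, small luminal proteins that the unfolded protein response induces. CRELD2 (Entrez gene 79174), a thiol-exchange protein that binds folding clients, stood at 119.6, 121 and 124 TPM in the sh1 libraries, 77.2, 79.2 and 74.8 TPM in the sh2 libraries and 37.3, 35.9 and 36.05 TPM in the control libraries. Every sh1 library was above every sh2 library, and every sh2 library above every control library, with log2 changes of 1.78 ± 0.05 for sh1 and 1.15 ± 0.054 for sh2. SDF2L1 (23753), a partner of the HSP40-type co-chaperones, had 42.1, 40.3 and 39.8 TPM with sh1, 22.02, 26.1 and 21.9 TPM with sh2 and 15.98, 14.2 and 14.03 TPM in control. Its order was the same, at a lower level, with 1.51 ± 0.11 with sh1 and 0.73 ± 0.12 with sh2. HSP90B1 (7184), the HSP90 of the lumen known as GRP94 and the most abundant of the 45 genes in control, had 2120.1, 2059.9 and 2066 TPM with sh1, 1372, 1333 and 1273 TPM with sh2 and 934, 941 and 966 TPM in control, or 2.27-fold the control with sh1 and 1.47-fold with sh2.

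The HSP70 chaperones of the lumen moved apart between the hairpins. HSPA5 (3309), the chaperone BiP that binds unfolded chains and holds the sensors inactive, stood at 769.9, 754 and 762 TPM with sh1, 323, 331 and 317 TPM with sh2 and 420.1, 414 and 412 TPM in control. It was 1.90-fold the control with sh1 and 0.82-fold with sh2, and no libraries of different groups overlapped. HYOU1 (10525), the large HSP70-like protein GRP170 that serves BiP as nucleotide exchange factor, had 139, 137 and 141 TPM with sh1, 33.5, 32.3 and 35.3 TPM with sh2 and 87.03, 91 and 91.98 TPM in control. It rose by 0.68 ± 0.031 with sh1 and changed by -1.35 ± 0.037 with sh2 (edgeR adjusted p = 6.17e-18 and 1.56e-23). SIL1, the other exchange factor of BiP, had 0.064 ± 0.065 with sh1, which was not called, and rose by 0.29 ± 0.062 with sh2. Among the HSP40-type partners of BiP, DNAJB11 rose by 0.69 ± 0.036 with sh1 and 0.46 ± 0.037 with sh2 and DNAJB9 by 0.54 ± 0.10 with sh1 and 0.46 ± 0.10 with sh2. DNAJC3, which is also known to restrain PERK, changed by -0.15 ± 0.052 with sh1 and -0.28 ± 0.052 with sh2. MANF, a secreted BiP-binding factor, rose by 0.33 ± 0.047 with sh1, while its 0.019 ± 0.048 with sh2 was not called.

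**Figure D2:**
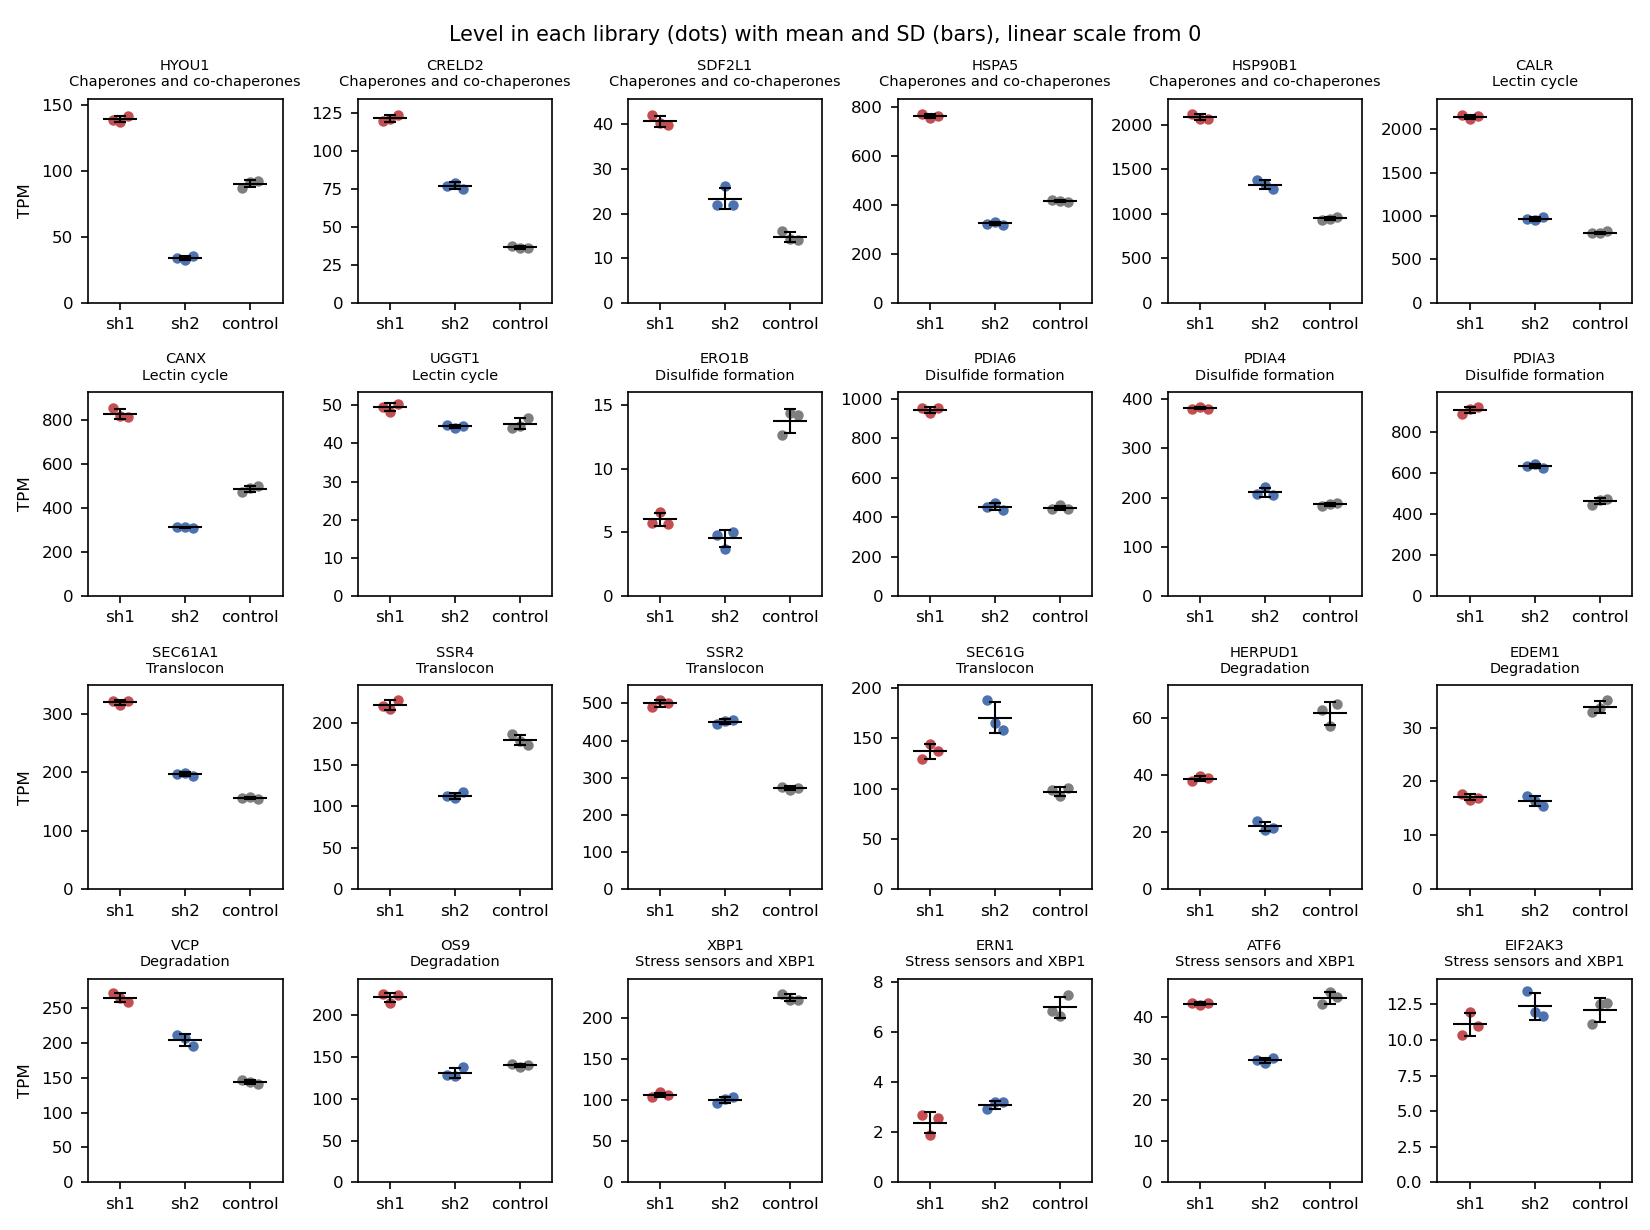
Level in TPM (vertical axes, linear from 0, each panel with its own scale) of the 23 members with the largest changes by role or that are sensors, and of HSP90B1, in the sh1, sh2 and control libraries. Dots are libraries and bars the mean and SD; HYOU1 is highest with sh1 (mean 139 TPM) and lowest with sh2 (mean 33.7 TPM), while XBP1 is near 106 TPM and 101 TPM with the hairpins against 225 TPM in control.

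Several of these genes hold a known promoter element of the unfolded protein response. The members were chosen by name as genes of folding and stress. How often they hold the element is thus a description and adds no support. The ER stress element, read as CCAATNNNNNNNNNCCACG, and its short form ERSE-II, read as ATTGGNCCACG, are known binding sites of ATF6 with NF-Y and of XBP1. Both were searched as exact matches on both strands in RefSeq promoters of GRCh38.p14, from 250 bases before to 50 after each start. Near matches were not counted, so a member without a match may still hold a variant of the element. A promoter was at hand for 42 members. ERSE occurred in 8 of them (19.0%), where 0.154% of 11061 tested genes with a promoter and 0.0769% of all 35116 promoters hold it. ERSE-II occurred in 3 (7.14%), where 0.127% of tested genes and 0.0541% of all promoters do. These shares of all genes include the members themselves. The sequences are given as a description. Most of these genes differed between the hairpins, but so did 69.8% of all genes tested. Capitals mark the elements in gene orientation, 5′ to 3′; an element on the other strand reads as its reverse complement. The whole 250 bases upstream are shown for HSPA5 and HYOU1, and short windows around the element for the others:
HSPA5 (chr9:125241344-125241593, minus strand): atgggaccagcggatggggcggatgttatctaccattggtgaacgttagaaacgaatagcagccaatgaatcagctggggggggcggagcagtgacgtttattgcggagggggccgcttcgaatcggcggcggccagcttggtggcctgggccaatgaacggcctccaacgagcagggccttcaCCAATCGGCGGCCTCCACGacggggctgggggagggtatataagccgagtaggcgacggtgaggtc
HYOU1 (chr11:119057206-119057455, minus strand): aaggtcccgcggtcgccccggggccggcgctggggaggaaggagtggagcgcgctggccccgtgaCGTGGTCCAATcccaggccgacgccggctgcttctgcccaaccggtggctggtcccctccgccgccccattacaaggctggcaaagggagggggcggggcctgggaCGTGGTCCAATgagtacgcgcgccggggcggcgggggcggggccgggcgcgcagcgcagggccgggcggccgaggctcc
CRELD2, ERSE (chr22:49918534-49918592, plus strand): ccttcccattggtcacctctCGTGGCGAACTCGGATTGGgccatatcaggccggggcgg
SDF2L1, ERSE-II (chr22:21642094-21642144, plus strand): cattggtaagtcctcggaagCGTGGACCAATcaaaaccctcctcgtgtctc
HSP90B1, ERSE (chr12:103930211-103930239, plus strand): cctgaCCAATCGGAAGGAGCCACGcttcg
HSP90B1, ERSE (chr12:103930316-103930344, plus strand): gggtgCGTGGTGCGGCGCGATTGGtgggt
CALR, ERSE (chr19:12938364-12938422, plus strand): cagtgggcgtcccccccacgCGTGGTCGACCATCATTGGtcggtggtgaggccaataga
CANX, ERSE (chr5:179698773-179698801, plus strand): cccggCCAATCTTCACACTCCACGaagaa
PDIA6, ERSE (chr2:10812848-10812876, minus strand): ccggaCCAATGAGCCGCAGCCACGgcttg
ERO1B, ERSE (chr1:236282163-236282208, minus strand): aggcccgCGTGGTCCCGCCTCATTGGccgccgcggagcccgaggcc
HERPUD1, ERSE-II (chr16:56932020-56932040, plus strand): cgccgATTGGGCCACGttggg
XBP1, ERSE (chr22:28800598-28800626, minus strand): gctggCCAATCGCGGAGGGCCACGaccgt

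The HSPA5 element lay 66 to 48 bases before the start, and HYOU1 held 2 copies of ERSE-II, the first of which overlaps by part of its letters a match to the core of the unfolded protein response element. That core, read as TGACGTGG, occurred in 6 members (14.3%; HYOU1, TXNDC5, DNAJC10, SSR3, SSR4 and VCP), where 1.19% of tested genes and 0.729% of all promoters hold it. TGATGNAA, a form of the C/EBP-ATF element bound by ATF4 and CHOP, occurred in HERPUD1 alone (2.38%), where 2.93% of tested genes and 3.62% of all promoters hold it. Of the 11 members with ERSE or ERSE-II, 8 rose and 3 fell with sh1 (median 0.92, from -1.14 to 1.78), and 5 rose and 6 fell with sh2 (median -0.29, from -1.54 to 1.15). Of all genes, 34.7% were called higher and 34.6% lower with sh1, and 34.2% and 34.3% with sh2. Between the hairpins 10 of the 11 were higher with sh1, with a median of 0.80. Of all genes, 34.2% were called higher and 35.6% lower in that contrast. XBP1, at 0.062 ± 0.042, was not called although its sh1 libraries had the higher TPM without overlap. The 31 other members with a promoter had medians of 0.18 for sh1, 0.026 for sh2 and 0.12 for sh1 against sh2, with 16 higher and 8 lower in that last contrast. The 20 tested genes outside the 45 that hold either element had medians of -0.0012 for sh1, -0.082 for sh2 and -0.049 for sh1 against sh2, with 7 higher and 9 lower with sh1 than with sh2. A match describes letters in a window and was not tested as a site.

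**Figure D3:**
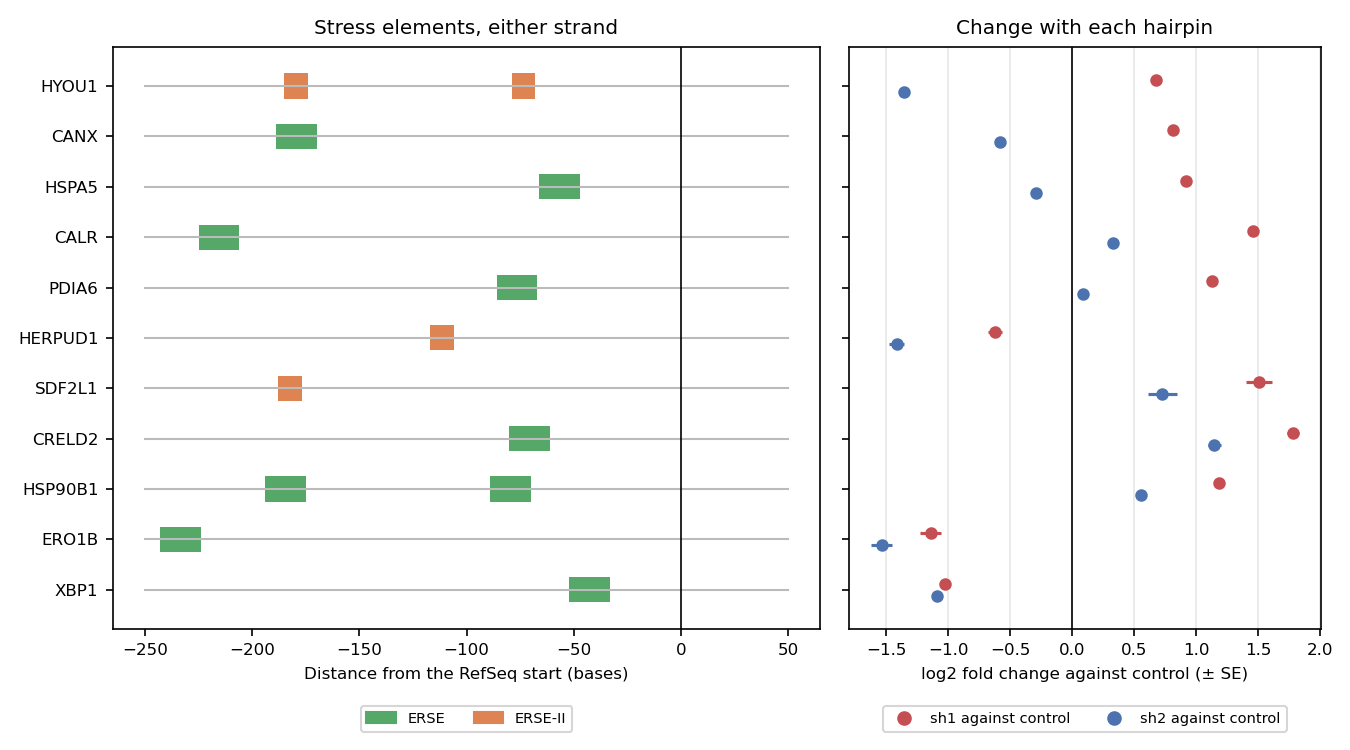
Left, position of ERSE and ERSE-II matches relative to the RefSeq start (horizontal axis, bases; for CANX, PDIA6 and XBP1, which have several starts, 1 start whose window holds the match) in the 11 members that hold one; right, log2 change with each hairpin against control (± SE). Genes are ordered by the difference between the hairpins, from 2.03 for HYOU1 at the top to 0.062 for XBP1 at the bottom.

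The lectin cycle, which keeps glycoproteins in the folding compartment until they are folded, rose for 3 of 3 genes with sh1. With sh2, 1 rose, 1 fell and 1 was not called. CALR (811), the soluble lectin calreticulin, had 2169.5, 2123 and 2153 TPM in the sh1 libraries, 965, 949 and 988 TPM in the sh2 libraries and 801, 799 and 823 TPM in the control libraries. It was the most abundant of the 45 genes with sh1, followed by HSP90B1, whereas HSP90B1 led CALR with sh2 and in control; in each group the libraries of these genes did not overlap. Its changes were 2.75-fold with sh1 and 1.25-fold with sh2. CANX (821), its membrane-bound counterpart calnexin, had 858, 822 and 814 TPM with sh1, 313, 315 and 310.0 TPM with sh2 and 474, 491 and 502 TPM in control. The sh1 libraries were the highest and the sh2 libraries the lowest, at 1.76-fold the control with sh1 and 0.67-fold with sh2. UGGT1, which re-glucosylates misfolded glycoproteins, had 49.7, 48.4 and 50.5 TPM with sh1, 44.9, 44.1 and 44.6 TPM with sh2 and 44.02, 44.6 and 46.8 TPM in control. The sh1 libraries lay just above the rest (0.18 ± 0.03), and sh2 and control overlapped (0.049 ± 0.03, not called).

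Disulfide formation rose for 6 of 9 genes with sh1 and for 5 of 9 with sh2, and 2 fell with each. PDIA6 (10130), a protein disulfide isomerase that also attenuates IRE1, had 952, 927 and 954 TPM with sh1, 451, 473 and 438 TPM with sh2 and 439, 459 and 442 TPM in control. It was 2.18-fold the control with sh1. With sh2 its libraries overlapped those of control, and the call of 0.09 ± 0.029 (adjusted p = 0.00698, edgeR) was lost without control library 3 (0.07, adjusted p = 0.0585) or without sh2 library 2 (0.053, adjusted p = 0.121). PDIA4 (9601), an isomerase of the chaperone complex around BiP, had 380.3, 385 and 381 TPM with sh1, 206, 221 and 205 TPM with sh2 and 184, 186 and 189 TPM in control, with no overlap between groups (1.08 ± 0.031 with sh1 and 0.24 ± 0.031 with sh2). PDIA3 (2923), the isomerase ERp57 that works with calnexin and calreticulin, had 889, 909 and 921 TPM with sh1, 631, 642 and 623 TPM with sh2 and 444, 467 and 475 TPM in control. It followed the same order, at 2.03-fold the control with sh1 and 1.43-fold with sh2. P4HB, the archetypal isomerase PDI, rose more with sh2 (0.61 ± 0.027) than with sh1 (0.19 ± 0.027), and PDIA5, another isomerase, rose with sh1 (0.62 ± 0.046) and was not called with sh2 (0.026 ± 0.049).

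The oxidases that feed these isomerases moved in opposite directions. ERO1A (30001) rose by 0.80 ± 0.028 with sh1 and 0.57 ± 0.028 with sh2, with means of 229 ± 5.17 TPM with sh1, 193 ± 2.9 TPM with sh2 and 136 ± 4.94 TPM in control (SD, n = 3 libraries). ERO1B (56605), its paralog induced by the unfolded protein response, had 5.76, 6.62 and 5.67 TPM with sh1, 4.82, 3.73 and 5.01 TPM with sh2 and 12.7, 14.4 and 14.3 TPM in control. Every hairpin library lay below every control library, at 0.45-fold the control with sh1 and 0.34-fold with sh2. Of the remaining disulfide genes, TXNDC5 changed by -0.12 ± 0.034 with sh1 and had -0.005 ± 0.034 with sh2, not called. Its sh2 libraries nevertheless lay below control in TPM without overlap. DNAJC10, which reduces clients bound for degradation, had 0.056 ± 0.03 with sh1, not called, and -0.24 ± 0.03 with sh2.

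The translocon split along its parts: the SEC61 channel rose with both hairpins, while its partners moved both ways. Of the 8 translocon genes, 5 rose and 3 fell with sh1, and 4 rose and 4 fell with sh2. All 3 channel subunits were called higher. SEC61A1 (29927), the pore-forming subunit, had 322, 315 and 321 TPM with sh1, 197, 199.5 and 193 TPM with sh2 and 156, 158 and 154 TPM in control, or 2.12-fold the control with sh1 and 1.32-fold with sh2. SEC61G, a small subunit, had 129, 144 and 137 TPM with sh1, 188, 165 and 158 TPM with sh2 and 98.5, 92.4 and 100.3 TPM in control. Here the sh2 libraries were the highest (0.55 ± 0.074 with sh1 and 0.88 ± 0.07 with sh2). SEC61B, the other small subunit, rose by 0.53 ± 0.061 with sh1 and 0.55 ± 0.06 with sh2. SEC63, which recruits BiP to the channel, changed by -0.18 ± 0.035 with sh1 and -0.18 ± 0.034 with sh2.

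The 4 subunits of the translocon-associated protein complex, which sits beside the channel, did not move together. SSR2 (6746) had 490.1, 509.7 and 502 TPM with sh1, 444, 453 and 456 TPM with sh2 and 276, 267 and 273 TPM in control, 1.90-fold the control with sh1 and 1.74-fold with sh2. SSR4 (6748) had 220.4, 217 and 228 TPM with sh1, 112, 109.8 and 117 TPM with sh2 and 186, 178 and 174 TPM in control. It was the highest with sh1 and the lowest with sh2, with no overlap between groups (0.35 ± 0.045 with sh1 and -0.60 ± 0.05 with sh2). SSR1 changed by -0.21 ± 0.035 with sh1 and -0.088 ± 0.034 with sh2 and SSR3 by -0.15 ± 0.035 with sh1 and -0.12 ± 0.034 with sh2.

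**Figure D4:**
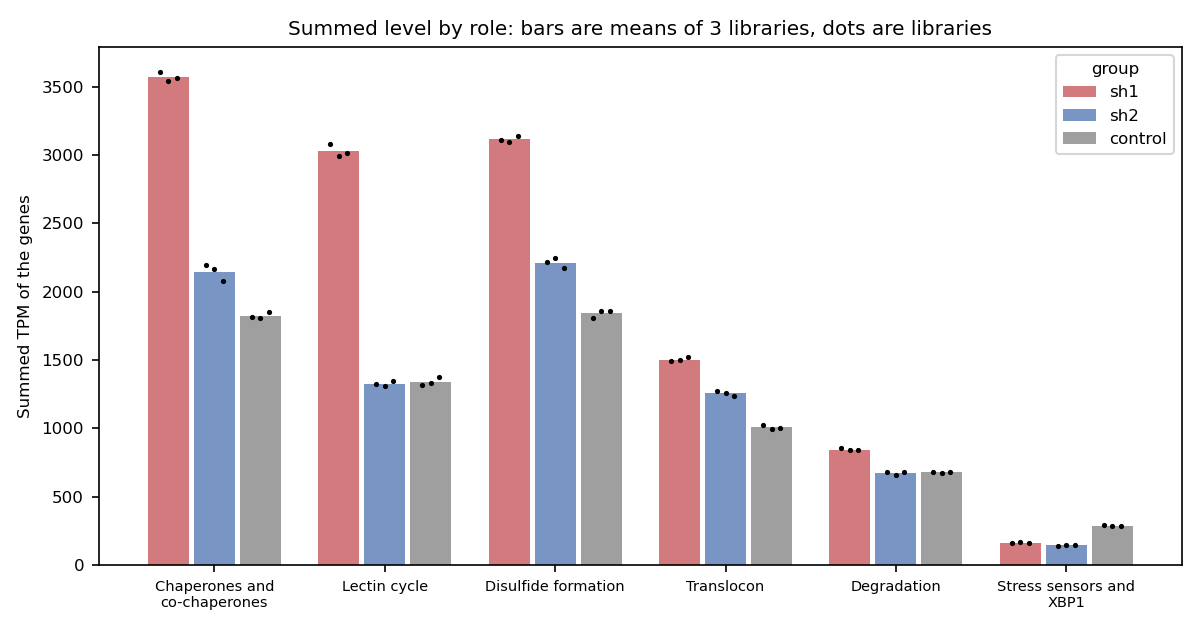
Summed TPM (vertical axis) of the members of each role, with bars for the mean of 3 libraries and dots for single libraries, in sh1, sh2 and control. The chaperones sum to 3541 to 3609 TPM with sh1, 2078 to 2195 TPM with sh2 and 1807 to 1849 TPM in control, and the sensors with XBP1 to 161 to 166 TPM with sh1, 142 to 149 TPM with sh2 and 287 to 291 TPM in control.

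Summed levels followed the same roles. The lectin cycle came to 2993 to 3077 TPM with sh1, 1308 to 1343 TPM with sh2 and 1319 to 1372 TPM in control, so that sh2 and control overlapped. Disulfide formation came to 3094 to 3139 TPM with sh1, 2171 to 2245 TPM with sh2 and 1811 to 1858 TPM in control. The translocon came to 1489 to 1519 TPM with sh1, 1237 to 1276 TPM with sh2 and 999 to 1021 TPM in control. Degradation came to 839 to 856 TPM with sh1, 661 to 680.3 TPM with sh2 and 675 to 683 TPM in control, where sh2 and control overlapped. These sums are led by a few abundant genes and were not tested.

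Degradation genes gave 4 higher, 4 lower and 2 not called of 10 tested in each comparison with control, a share of 40.0% in each direction that lies near the 34.7% higher and 34.6% lower of all genes with sh1 and the 34.2% and 34.3% with sh2. VCP (7415), the ATPase that pulls substrates into the cytosol, had 271, 264 and 259 TPM with sh1, 211, 207 and 195 TPM with sh2 and 147, 143 and 141 TPM in control, 1.90-fold the control with sh1 and 1.49-fold with sh2. OS9 (10956), a lectin that delivers glycoproteins to the ligase complex, had 225, 214 and 224 TPM with sh1, 128, 127 and 138 TPM with sh2 and 141, 138 and 140.1 TPM in control. It rose with sh1 (0.70 ± 0.033). Its sh2 libraries lay just below control in TPM without overlap, but the fitted change was not called (-0.029 ± 0.034). The channel-like derlins rose, DERL2 by 0.62 ± 0.053 with sh1 and 0.34 ± 0.054 with sh2 and DERL1 by 0.14 ± 0.032 with sh1 and 0.12 ± 0.032 with sh2. DERL3, the remaining derlin, had 1 count over the control libraries and 0 with either hairpin, and was not tested.

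HERPUD1 and EDEM1 fell most among the degradation genes. HERPUD1 (9709), which organises the ligase complex and is induced by the unfolded protein response, had 37.9, 39.6 and 38.9 TPM with sh1, 23.96, 20.8 and 21.4 TPM with sh2 and 63.02, 57.3 and 65.1 TPM in control. Every hairpin library was below every control library, and the sh2 libraries were the lowest (-0.62 ± 0.056 with sh1 and -1.42 ± 0.062 with sh2). EDEM1 (9695), which trims mannose from doomed glycoproteins and is a target of XBP1, had 17.7, 16.6 and 16.98 TPM with sh1, 17.4, 16.3 and 15.5 TPM with sh2 and 32.96, 33.6 and 35.05 TPM in control, or 0.52-fold the control with sh1 and 0.51-fold with sh2. Of its relatives, EDEM3 changed by -0.61 ± 0.049 with sh1 and had 0.0086 ± 0.045 with sh2, not called, and EDEM2 had -0.068 ± 0.066 with sh1, not called, and -0.18 ± 0.066 with sh2. In TPM, the sh2 libraries of EDEM3 and the sh1 libraries of EDEM2 nevertheless lay below control without overlap. Of the ligase itself, the adaptor SEL1L changed by -0.24 ± 0.036 with sh1 and -0.48 ± 0.037 with sh2, while the catalytic subunit SYVN1 had 0.053 ± 0.045 with sh1, not called, and 0.14 ± 0.045 with sh2, where the TPM of its libraries overlapped those of control.

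Of the sensors and XBP1, 2 of 4 fell with sh1 and 3 of 4 with sh2, and the others were not called. XBP1 (7494) had 104, 109 and 106 TPM with sh1, 96.5, 102 and 104 TPM with sh2 and 229, 222 and 222 TPM in control. All hairpin libraries were below all control libraries, at 0.49-fold the control with sh1 and 0.47-fold with sh2. The tables give 1 value per gene, so spliced and unspliced XBP1 mRNA cannot be told apart here. ERN1 (2081), the kinase and nuclease IRE1 that splices it, had 2.67, 1.89 and 2.56 TPM with sh1, 2.91, 3.19 and 3.20 TPM with sh2 and 6.84, 6.65 and 7.46 TPM in control. Every hairpin library was below every control library (-1.51 ± 0.12 with sh1 and -1.10 ± 0.11 with sh2). ATF6 (22926) had 43.6, 42.99 and 43.4 TPM with sh1, 29.5, 29 and 30.1 TPM with sh2 and 43.2, 46.02 and 44.95 TPM in control. Its sh1 and control libraries overlapped (0.0016 ± 0.033, not called), and its sh2 libraries lay below both (-0.53 ± 0.034). EIF2AK3 (9451), the kinase PERK, had 10.3, 11.97 and 10.99 TPM with sh1, 13.5, 11.98 and 11.7 TPM with sh2 and 11.1, 12.5 and 12.6 TPM in control. The groups overlapped, and neither comparison with control was called (-0.086 ± 0.072 with sh1 and 0.081 ± 0.069 with sh2).

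Hairpin 1 was then set against hairpin 2. The control libraries are not in this contrast, but they share the fit, its filter and its estimate of the spread. Of the 44 genes, 27 were higher and 8 lower with sh1, where 34.2% and 35.6% of all genes were called (69.8% in either direction), and at 1.5-fold or more 14 were higher and 1 lower, 15 in all, where 23.3% of all genes were called in either direction. The groups did not overlap in TPM for 36 members, where 70.9% of all genes did not. By role, 8 of 10 chaperones, 3 of 3 lectin cycle genes and 7 of 9 disulfide genes were higher with sh1, against 3 of 8 translocon genes, 5 of 10 degradation genes and 1 of 4 sensors. The medians by role were 0.47, 1.13, 0.40, -0.0063, 0.18 and -0.052 in that order, against 0.0032 over all genes. HYOU1 differed most, at 4.09-fold (2.03 ± 0.036), followed by CANX (1.39 ± 0.025), HSPA5 (1.22 ± 0.026), CALR (1.13 ± 0.024) and PDIA6 (1.04 ± 0.028). EDEM3 was the member lower with sh1 at 1.5-fold or more (-0.62 ± 0.049), and P4HB had -0.42 ± 0.026. XBP1 (0.062 ± 0.042), EDEM1 (0.041 ± 0.049) and SEC61B (-0.019 ± 0.056) were not called. Differences of the sensors ERN1 (-0.41 ± 0.14) and EIF2AK3 (-0.17 ± 0.07) were called with adjusted p = 0.0131 and 0.036 in edgeR. DESeq2 called neither (adjusted p = 0.0574 and 0.143). The ERN1 difference was -0.27 without sh1 library 2, and that of EIF2AK3 was -0.12 without sh1 library 1, -0.16 without sh1 library 3 and -0.10 without sh2 library 1, each not called.

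Other genes of the secretory pathway, 96 in lists of which 94 were tested, gave 56 higher and 24 lower with sh1 and 55 higher and 23 lower with sh2, with median log2 changes of 0.29 with sh1 and 0.16 with sh2. These are 59.6% higher and 25.5% lower with sh1, where 34.7% and 34.6% of all genes were called, and 58.5% higher and 24.5% lower with sh2, where 34.2% and 34.3% were. The counts of the single lists are small and are given as descriptions. Oligosaccharyltransferase, which attaches glycans to nascent chains, was higher for 8 of 11 genes with each hairpin, but not for the same 8. DAD1 and OSTC fell with sh1 and STT3B with sh2. TPM did not overlap control for 10 of the 11 with sh1 and 5 with sh2, where 71.0% and 69.5% of all genes did not. The largest changes of this list were those of RPN1 (1.07 ± 0.03 with sh1 and 0.27 ± 0.031 with sh2) and DDOST (0.90 ± 0.028 with sh1 and 0.63 ± 0.028 with sh2). All 3 KDEL receptors, which return escaped chaperones from the Golgi, rose with each hairpin, KDELR3 by 1.19 ± 0.082 with sh1 and 0.46 ± 0.089 with sh2 and KDELR2 by 0.62 ± 0.029 with sh1 and 0.20 ± 0.029 with sh2. Signal peptidase genes rose for 5 of 6 with sh1 and 2 of 6 with sh2, and 1 fell with each. SEC11C, a catalytic subunit, rose by 0.50 ± 0.10 with sh1 and 0.74 ± 0.095 with sh2, and SPCS3 changed by 0.65 ± 0.034 with sh1 and -0.16 ± 0.036 with sh2. The signal recognition particle and its receptor gave 3 higher and 3 lower of 8 with sh1, a share of 37.5% in each direction that lies near that of all genes, and 6 of 8 higher with sh2, where the others were not called. SRPRA, a receptor subunit, changed by -0.40 ± 0.041 with sh1 and 0.60 ± 0.037 with sh2, and SRP14 rose by 0.62 ± 0.033 with sh1 and 0.57 ± 0.033 with sh2.

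Partners of the translocon, among them the membrane protein complex that inserts transmembrane segments, rose for 11 of 14 with sh1 and 8 of 14 with sh2. In this list 1 fell with sh1 and 4 with sh2. EMC10 had 0.95 ± 0.039 with sh1 and 0.77 ± 0.039 with sh2, and TMCO1 0.66 ± 0.041 with sh1 and 0.29 ± 0.042 with sh2. TRAM2 moved both ways, at 0.55 ± 0.042 with sh1 and -0.48 ± 0.047 with sh2. Further degradation factors rose for 8 of 15 with sh1 and 9 of 15 with sh2 and fell for 5 with sh1 and 4 with sh2. UFD1, a cofactor of VCP, rose by 1.06 ± 0.046 with sh1 and 0.83 ± 0.047 with sh2. Further folding factors rose for 15 of 24 with sh1 and 14 of 24 with sh2 and fell for 4 with sh1 and 7 with sh2. TXNDC12, a thioredoxin of the lumen, changed by 0.27 ± 0.034 with sh1 and -1.38 ± 0.04 with sh2, and FKBP10 had 0.39 ± 0.5, not called, and 1.14 ± 0.44 at a level below 1 TPM and with TPM that overlapped control. Targets of the stress branches, listed together with vesicle coat genes, gave 3 higher and 8 lower of 13 with sh1 and 5 higher and 6 lower with sh2. Among them DDIT3, the factor CHOP downstream of PERK and ATF4, changed by -2.06 ± 0.079 with sh1 and -2.00 ± 0.076 with sh2, and ATF3 by -2.02 ± 0.04 with sh1 and -1.38 ± 0.037 with sh2.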

How the data were processed

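RNA of KYSE510 cells was made into libraries with BGISEQ-500 protocols, per the labels. RSEM 1.2.12, HISAT2 2.0.4, DESeq2 1.4.5, Bowtie2 2.2.5 and hg19 are listed, with no role, in the submitters' processing notes. Whether counting used strand is not stated there, so overlapping genes and near-identical copies are uncertain. Per the file headers, each of 9 deposited tables holds expected counts, TPM and FPKM values by gene, computed by the authors. Symbols came from RefSeq (GRCh38.p14), for 19223 of 19266 identifiers.

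Expected counts were rounded and tested in R 4.3.3 with edgeR 4.0.16 (filterByExpr, TMM, 1 quasi-likelihood fit of all 9 libraries, group as the only term), adjusted by Benjamini-Hochberg over the 13580 genes tested and called below 0.05. The test was also run on counts simulated with a single spread estimated from these libraries. That run cannot show whether the p-values hold between samples. Fold changes are log2 ± SE, with SE taken as the size of the change over the root of its F value. Levels are deposited TPM; their log2 ratios run below the fitted changes by a median of 0.048 (sh1) and 0.067 (sh2). Tables of 1 sample differed by a chi-square per gene of 1.41 to 2.43, above sampling noise, where genes averaged 20 counts or more. A floor of 3 counts is 0.186 to 0.205 CPM and covers counting error only.

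Alternatives used limma 3.58.1 on the deposited FPKM values as log2(FPKM + 1) or log2(FPKM + 0.1), which understates changes of low genes, and DESeq2 1.42.0. Values per library are given for the sensors, for up to 4 called members of each other role with the largest change and a mean of at least 1 TPM, and for the most abundant member in control; up to 2 called genes are named from each further list. The members and lists were chosen with earlier results of these data known. Protein sequences were not used here. Some genes are not reported here.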

Additional observations from a re-analysis of the deposited data

Results flagged for a closer look

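Among the 44 tested genes, 4 rose with sh1 and fell with sh2 against the same control libraries. How many of all genes did so was not counted, so this number has no background share. Against control, 69.3% of all genes were called with sh1 and 68.5% with sh2, in either direction. The 4 genes were picked for these opposite calls. Their differences between the hairpins, given with p-values of edgeR's quasi-likelihood test, thus restate that choice and add no support. HYOU1, the exchange factor GRP170, differed by 2.03 on the log2 scale (sh1 against sh2, adjusted p = 6.57e-28), with means of 139 ± 2.36 TPM with sh1 and 33.7 ± 1.49 TPM with sh2 (SD, n = 3 libraries). CANX, calnexin, differed by 1.39 (adjusted p = 1.19e-27), with 831 ± 23.2 TPM with sh1 and 313 ± 2.32 TPM with sh2. HSPA5, the chaperone BiP, differed by 1.22 (adjusted p = 4.59e-26), with 762 ± 7.76 TPM with sh1 and 323 ± 6.77 TPM with sh2, and its fall with sh2 was not called against a fold change of 1.2. SSR4, a subunit beside the translocon, differed by 0.95 (adjusted p = 5.57e-17), with 222 ± 5.65 TPM with sh1 and 113 ± 3.49 TPM with sh2. Each hairpin is 1 sample, so a difference between hairpins and one between single cultures cannot be told apart.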

How the results depend on the processing

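Counts of members called were within 1.5 times the main value under RLE factors, library size alone, DESeq2, no filter, a mean count of at least 50, fits of the compared groups alone, both FPKM scales and each omission of 1 library. Under glmTreat against a fold change of 1.2, sh1 against control gave 6 lower instead of 12, sh2 against control 24 called (10 lower) instead of 37 (17 lower), and sh1 against sh2 19 called (17 higher, 2 lower) instead of 35 (27 and 8). The share of all genes called under glmTreat was not counted, so these numbers describe the members only. The rule of 1.5-fold, added after the data were seen, gave 24 called with 6 lower for sh1, 12 with 5 higher and 7 lower for sh2, and 15 with 14 higher and 1 lower between the hairpins. Of the 72 log2 changes of members given per library, none that was called changed sign under any alternative, the summed tables of each sample included. ATF6 with sh1, not called and near 0, ranged down to -0.013 without single libraries. Of those called, 10 were no longer called under glmTreat, 2 under DESeq2 (ERN1 and EIF2AK3 between the hairpins), and PDIA6 with sh2, ERN1 and EIF2AK3 without single libraries. The difference of EIF2AK3 was also not called without a filter, at a mean of 50 counts or on either FPKM scale. The cause was not tested. The median of the sensors with sh2 was -0.61 on log2(FPKM + 1), against -0.81. Table numbers did not pair the libraries: same-numbered libraries had deviations correlated at -0.077 to 0.043. A replicate block by table number gave 38, 37 and 35 members called in the 3 comparisons, against 38, 37 and 35, and changed no call among the 72. Since every group is 1 sample, the spread between samples of a group was not measured, and the tests use tables in its place.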

Other observations

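Outside the 45 genes, some genes of the secretory pathway were also higher with sh1 and lower with sh2 than in control; they were chosen after their values were seen. TXNDC12 stood at 133 ± 1.62 TPM with sh1, 41.7 ± 1.09 TPM with sh2 and 114 ± 3.88 TPM in control (SD, n = 3 libraries). TMX1, a membrane thioredoxin, had 102 ± 0.509 TPM with sh1, 42.7 ± 2.62 TPM with sh2 and 86.5 ± 2.87 TPM in control. TMED2, a cargo receptor of transport vesicles, had 479.5 ± 11.9 TPM with sh1, 222 ± 5.48 TPM with sh2 and 353 ± 2.87 TPM in control, and TRAM1, which sits beside the translocon, 187 ± 2.42 TPM with sh1, 105 ± 1.39 TPM with sh2 and 142 ± 5.21 TPM in control. Others went the other way, lower with sh1 and higher with sh2: OSTC, SRP68, SRPRA, SEC11A, ERLEC1, SEC24D, SEC23B and SEC31A. Of these, SRPRA and SEC11A differed most between the hairpins, by -0.99 ± 0.039 and -0.89 ± 0.044 on the log2 scale. With sh1 against sh2, 42 of the 94 tested pathway genes were higher and 33 lower (44.7% and 35.1%). Of all genes, 34.2% and 35.6% were called. The median log2 difference of the 94 genes was 0.042, so neither direction describes the pathway as a whole.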
